A study of Homo sapiens with 8 samples.

Results

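The genes that encode the subunits of the proteasome, with those of its activators, its inhibitor and its assembly factors, were followed in HEK293T cells after transfection with CRISPR activators. Members were the protein-coding genes whose symbol is PSM followed by a letter from A to G and a number, with *PSMB8* and *PSMB9* left out. The rule gave 43 of the 19770 genes in the files. They were 7 *PSMA* and 8 *PSMB* genes of the core, 6 *PSMC* and 13 *PSMD* genes of the base and lid, 4 *PSME* activator genes, *PSMF1* and 4 *PSMG* assembly genes. *PSMD5*, *PSMA8* and *PSMB11* were not analysed here.

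RNA-seq was done on HEK293T, a human embryonic kidney line that carries the SV40 large T antigen, to measure how specific the CRISPR-DREAM activator was across the transcriptome. There were 4 groups of 2 libraries, all harvested 72 h after lipid transfection, and every group, the control included, received 4 pooled gRNAs against the *HBG1* and *HBG2* promoters. The control expressed dCas9 and MCP-mCherry, a coat protein fused to a fluorescent protein with no activation domain. DREAM was dCas9 with MCP-MSN, which carries activation domains of human transcription factors, NRF2 among them. The synergistic activation mediator, SAM, was dCas9-VP64 with MCP-p65-HSF1, and dCas9-VPR was a direct fusion of dCas9 to its activation domains. The gRNAs had MS2 loops in all groups except dCas9-VPR. Expression was transient, the labels describe no selection of transfected cells, and none of the 8 libraries is from untransfected cells. The labels do not say whether the 2 libraries of a group came from separate transfections, so the p-values measure the spread between libraries, which may be technical.

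The 26S proteasome degrades proteins that carry ubiquitin chains. A barrel of PSMA and PSMB subunits holds the proteolytic sites inside, and a regulatory particle of PSMC ATPases and PSMD subunits caps the barrel, binds and removes ubiquitin, and unfolds and feeds in the substrate. Alternative caps made of PSME proteins open the barrel without ATP, and the subunit genes are known to be induced together by the factor NRF1, the product of *NFE2L1*, through antioxidant response elements when proteasome activity is low.

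Depth was estimated at 28.4 to 35.1 M reads per library from the step between low values, of which 64.4 to 69.4% lay within 0.04 of a whole read. An amount of 3 reads was worth 0.0854 to 0.106 CPM (the reads of a gene scaled to a fixed total per library), and counting error alone gave a coefficient of variation of 5.03 to 5.87% for the lowest member of a library and 0.818 to 0.896% for the highest. Each library matched its label at the targeted locus, where the control libraries had 0.838 and 1.29 CPM of *HBG2*, the dCas9-VPR libraries 218 and 201, those of SAM 707 and 860 and those of DREAM 2187 and 2874. The epithelial genes *KRT8* (45.2 to 113 CPM) and *KRT18* (79.7 to 101 CPM) and the mesenchymal gene *VIM* (267 to 440 CPM) were expressed, the kidney gene *PAX2* was near 1 CPM (0.798 to 1.73), *PECAM1* of endothelium ranged from 0.032 to 1.17 CPM and *COL1A1* of fibroblasts from 8.51 to 15.5 CPM. In RNA from whole wells, fewer cells that express a gene and less RNA per cell cannot be told apart.

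The 250 bases before the transcription start of the 4 members that passed the test in all 3 comparisons with the control are shown first, because the values below turn on these genes. The sequences are those of RefSeq on GRCh38.p14, 5′ to 3′ on the strand of the gene, which is the plus strand for all 4. *PSMF1* has 2 starts in RefSeq, and the one nearest the Gencode canonical start was taken. Capitals mark a CCAAT box on either strand.
*PSME3*, chr17:42833147-42833396: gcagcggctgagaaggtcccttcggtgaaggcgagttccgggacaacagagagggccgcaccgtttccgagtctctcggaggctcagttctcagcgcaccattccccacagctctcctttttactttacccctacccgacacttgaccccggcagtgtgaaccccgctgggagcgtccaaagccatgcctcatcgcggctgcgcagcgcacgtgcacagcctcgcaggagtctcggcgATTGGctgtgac
*PSMF1*, chr20:1118352-1118601: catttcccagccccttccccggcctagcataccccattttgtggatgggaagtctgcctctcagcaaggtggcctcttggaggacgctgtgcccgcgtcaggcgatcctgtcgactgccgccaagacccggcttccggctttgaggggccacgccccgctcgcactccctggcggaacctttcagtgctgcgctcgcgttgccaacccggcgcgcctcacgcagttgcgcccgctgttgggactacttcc
*PSMC1*, chr14:90256303-90256552: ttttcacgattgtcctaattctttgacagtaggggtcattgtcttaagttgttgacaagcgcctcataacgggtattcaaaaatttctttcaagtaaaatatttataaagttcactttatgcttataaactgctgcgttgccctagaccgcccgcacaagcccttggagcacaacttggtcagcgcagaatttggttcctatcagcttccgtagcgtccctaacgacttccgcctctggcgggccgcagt
*PSMD7*, chr16:74296564-74296813: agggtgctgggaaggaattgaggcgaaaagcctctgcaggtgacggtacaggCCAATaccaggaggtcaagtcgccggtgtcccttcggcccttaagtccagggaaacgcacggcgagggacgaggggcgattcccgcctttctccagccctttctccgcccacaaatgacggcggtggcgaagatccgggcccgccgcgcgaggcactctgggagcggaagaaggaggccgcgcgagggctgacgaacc
*PSMD7* and *PSME3* each held 1 CCAAT box in this stretch, and *PSMC1* and *PSMF1* held none. The stretch before *PSMC1* had 45.6% G and C, against 62.8% before *PSME3*, 65.2% before *PSMD7* and 66.0% before *PSMF1*.

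Promoter windows that ran from 250 bases before to 50 bases after the start were found for 37 of the 43 members and for 27305 genes in all. RefSeq lists several starts for some genes, and 7 of the 37 members (18.9%) and 19% of all genes had more than 1 window, so a gene counts below if any of its windows holds the letters. The letters TGACNNNGC, the core of the antioxidant response element, occurred on either strand in 13 of the 37 members (35.1%) and in 16.1% of all genes with a window. CCAAT occurred on either strand in 18 members (48.6%) and in 39.7% of all genes. The heat shock element was found in 0 members and in 0.608% of all genes. Stretches of 51 bases around the antioxidant response letters, in capitals, are shown for 4 members on the strand of the gene. They are the members called in at least 1 comparison with the control whose stretch lies wholly before the start. *PSMC4* was also called but held the letters only after the start, where *PSMD3* had a further match, and these are not shown.
*PSME4*, chr2:53970998-53971048: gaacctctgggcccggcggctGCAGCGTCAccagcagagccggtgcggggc
*PSMD3*, chr17:39980749-39980799: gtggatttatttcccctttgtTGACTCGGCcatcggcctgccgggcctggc
*PSMC5*, chr17:63827643-63827693: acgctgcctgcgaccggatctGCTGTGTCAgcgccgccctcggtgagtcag
*PSMD12*, chr17:67366713-67366763: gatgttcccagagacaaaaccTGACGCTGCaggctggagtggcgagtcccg
The match began 34 bases before the start in *PSME4*, 37 in *PSMD3*, 57 in *PSMC5* and 165 in *PSMD12*. Of these 4, *PSMC5* had 2 windows, and its distance is from the downstream one. Counted by window, the antioxidant response letters were in 28.9% of 45 member windows and 13.3% of all 35116, and CCAAT in 40% and 34.6%. A match of letters describes the window only.

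All 43 members were expressed in every library, and all moved little. The lowest value of any member in any library was 9.78 CPM (*PSMB10*), so all 43 passed the filter of 1 CPM in 2 libraries and none passed it through 1 group alone. The ratio of a member's highest to its lowest library was between 1.04 and 1.48, with a median of 1.20. The summed level of all members was 6790 ± 35.3 CPM in the control (SD, n = 2 libraries here and below), 6822 ± 103 with DREAM, 6921 ± 128 with SAM and 6507 ± 27.9 with dCas9-VPR. It took up 0.649 to 0.701% of all CPM. Both dCas9-VPR libraries lay below both control libraries, both SAM libraries lay above them and the DREAM libraries overlapped them. The differences of the total from the control were 0.475% with DREAM, 1.93% with SAM and -4.18% with dCas9-VPR, and all were negative under median-of-ratios scaling (-4.58%, -10.1% and -7.58%).

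**Figure D1:**
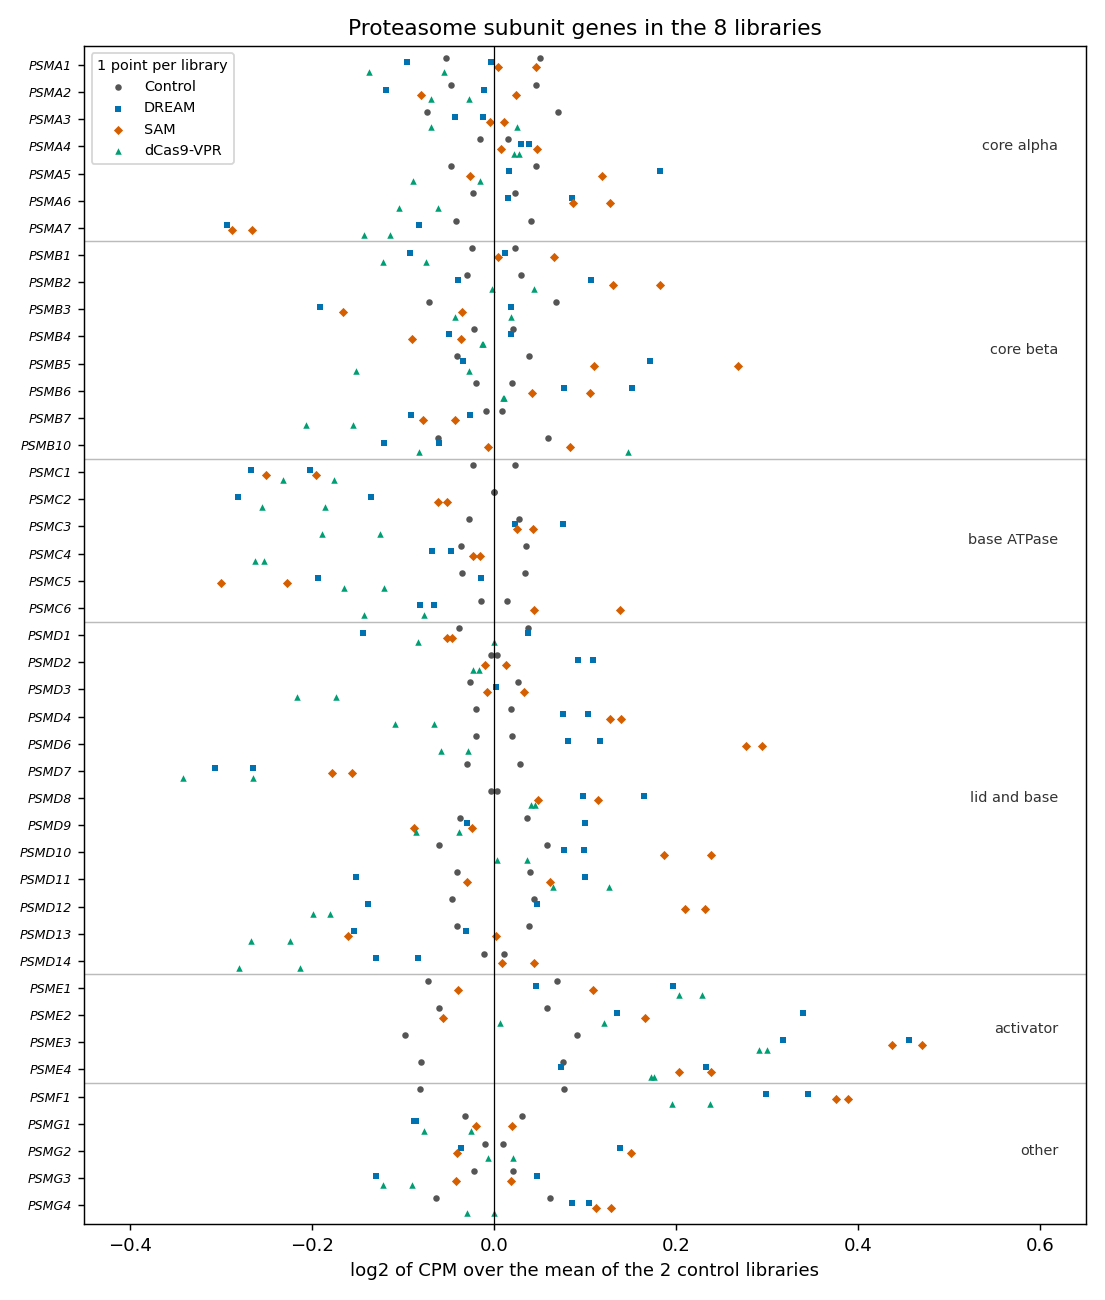
Each point is 1 library, placed by the log2 of its CPM over the mean CPM of the 2 control libraries (horizontal axis) for each of the 43 members (rows, grouped by class). Most points lie within 0.2 of 0. *PSME3* and *PSMF1* lie to the right of the control in all 6 activator libraries and *PSMC1* and *PSMD7* to the left. *PSMD8* also lies to the right in all 6, and *PSMA7*, *PSMB7* and *PSMC2* to the left.

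Members were called at a false discovery rate (FDR) below 0.05 in a limma fit over 15122 genes. Relative to the control, 2 members were higher and 3 lower with DREAM, where 18.8% of all genes tested were higher and 9.25% lower. With SAM 7 members were higher and 4 lower, against 35.7% and 8.89% of all genes. With dCas9-VPR 2 members were higher and 8 lower, against 11.0% and 6.68% of all genes. In percent of the 43, members called higher were 4.65, 16.3 and 4.65 for DREAM, SAM and dCas9-VPR, below the share of all genes each time. Members called lower were 6.98, 9.30 and 18.6 percent. The 3 comparisons share the control libraries and are not independent. No member passed the 2-fold limit used in the study together with the FDR limit, which 2.55% of all genes passed with DREAM, 4.34% with SAM and 1.10% with dCas9-VPR. Without adjustment, p was below 0.05 for 10, 13 and 14 members in the same order, again none of them past 2-fold. Of the 15122 genes tested, 6075, 7966 and 5172 had such a p.

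The median log2 fold change of the members was -0.02 with DREAM, 0.03 with SAM and -0.05 with dCas9-VPR, and that of all genes was 0.06, 0.16 and 0.06. These values depend on the scaling. When CPM values were rescaled by the median of ratios, the median of all genes with SAM moved from 0.16 to -0.01, a shift of 0.175 on the log2 scale, and the calls of members became 2 higher and 21 lower for SAM, 2 and 7 for DREAM and 1 and 11 for dCas9-VPR. The share of member calls that were higher thus went from 63.6 to 8.70% for SAM, from 40 to 22.2% for DREAM and from 20 to 8.33% for dCas9-VPR. For all genes under that scaling, 13.7% were higher and 14.4% lower with DREAM, 18.0% and 21.2% with SAM and 8.10% and 8.96% with dCas9-VPR.

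Single libraries decided part of these counts. For DREAM the 5 calls became 3 without control replicate 2 and 8 without DREAM replicate 1. For SAM the 11 calls became 6 without control replicate 1 or SAM replicate 1 and 5 without control replicate 2 or SAM replicate 2. For dCas9-VPR the 10 calls became 6 without control replicate 1, 1 without dCas9-VPR replicate 1 and 0 without control replicate 2 or dCas9-VPR replicate 2.

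A second count used only whether the 2 libraries of a group lay outside the 2 control libraries. With DREAM 11 members lay above and 9 below both control libraries, against 38.3% and 22.8% of all genes. With SAM 14 lay above and 8 below, against 55.3% and 19.2%. With dCas9-VPR 7 lay above and 21 below, against 41.1% and 23.8%. The members below with dCas9-VPR included all 6 *PSMC* genes and 9 of the 13 *PSMD* genes, while 3 of the 4 *PSME* genes lay above.

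In the core barrel 2 of the 15 genes were called against the control, each in 1 comparison. PSMA subunits form its outer rings and gate, and PSMB subunits its inner rings. The 7 *PSMA* genes summed to 1357 ± 19.7 CPM in the control, 1332 ± 50.9 with DREAM, 1328 ± 32.8 with SAM and 1300 ± 7.53 with dCas9-VPR. The 8 *PSMB* genes summed to 1779 ± 26.1, 1776 ± 81.8, 1803 ± 69.3 and 1721 ± 13.1 CPM. Both sums overlapped the control with DREAM and SAM and lay below both control libraries with dCas9-VPR, with a difference of -4.2% for *PSMA* and -3.26% for *PSMB*. Under median-of-ratios scaling, which divides by a size factor per library, all differences were negative: for *PSMA* -6.78% with DREAM, -13.7% with SAM and -7.61% with dCas9-VPR, and for *PSMB* -5.14%, -10.6% and -6.7%. No test of 2 against 2 libraries can give a two-sided permutation p below 0.333, so the sums are descriptions.

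*PSMB5*, *PSMB6* and *PSMB7* encode the 3 catalytic subunits of the constitutive proteasome, with chymotrypsin-like, caspase-like and trypsin-like activity. *PSMB5* stood at 210 and 222 CPM in the control, 211 and 243 with DREAM, 233 and 260 with SAM and 194 and 212 with dCas9-VPR. The SAM libraries lay above the control and the other groups overlapped it. The log2 fold changes were 0.07 ± 0.08 (SE) with DREAM (adjusted p = 0.549), 0.19 ± 0.08 with SAM (adjusted p = 0.0752) and -0.09 ± 0.08 with dCas9-VPR (adjusted p = 0.464), so none passed the test. The difference with SAM was called when either DREAM library was left out (adjusted p = 0.0268 and 0.0273), when only the control and SAM libraries were fitted (0.0327) and with the replicate number as a block (0.000254).

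*PSMB6* stood at 212 and 218 CPM in the control, 227 and 239 with DREAM, 221 and 231 with SAM and 217 and 216 with dCas9-VPR. Its log2 fold changes of 0.11, 0.07 and 0.01 did not pass the test (adjusted p = 0.111, 0.251 and 0.899), and those for SAM and dCas9-VPR changed sign under median-of-ratios scaling, to -0.11 and -0.04. *PSMB7* stood at 185 and 187 CPM in the control, 175 and 183 with DREAM, 176 and 181 with SAM and 167 and 161 with dCas9-VPR. All 6 activator libraries lay below both control libraries, and *PSMB7* was called lower with dCas9-VPR alone (log2 -0.18 ± 0.05, adjusted p = 0.0322). That call was lost without any 1 of the control, SAM or dCas9-VPR libraries (adjusted p = 0.0503 to 0.190), and under median-of-ratios scaling *PSMB7* was also called lower with SAM (log2 -0.24, adjusted p = 0.00721). The log2 fold changes of -0.06 for DREAM and for SAM did not pass the test on CPM (adjusted p = 0.408 and 0.348).

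*PSMA7*, an alpha-ring subunit gene, was the other core gene called against the control. It stood at 300 and 317 CPM in the control, 252 and 292 with DREAM, 257 and 253 with SAM and 280 and 285 with dCas9-VPR. All activator libraries lay below both control libraries, and only the fall with SAM passed the test (log2 -0.28 ± 0.07, adjusted p = 0.00720), 0.44 below the median of all genes. It was lost without control replicate 2 (adjusted p = 0.0648).

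The other core genes were not called against the control. *PSMA4* varied little, between 236 and 247 CPM in all libraries. *PSMB4*, with 407 to 439 CPM, was the highest member in every library. *PSMB10*, a catalytic subunit gene of the immunoproteasome and so of another kind than the rest, was the lowest, at 9.78 to 11.8 CPM. *PSMA1* ranged from 170 to 194 CPM, *PSMA2* from 145 to 163, *PSMA3* from 93.8 to 104, *PSMA5* from 190 to 229 and *PSMA6* from 153 to 179. *PSMB1* ranged from 305 to 348 CPM, *PSMB2* from 136 to 159 and *PSMB3* from 216 to 259.

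**Figure D2:**
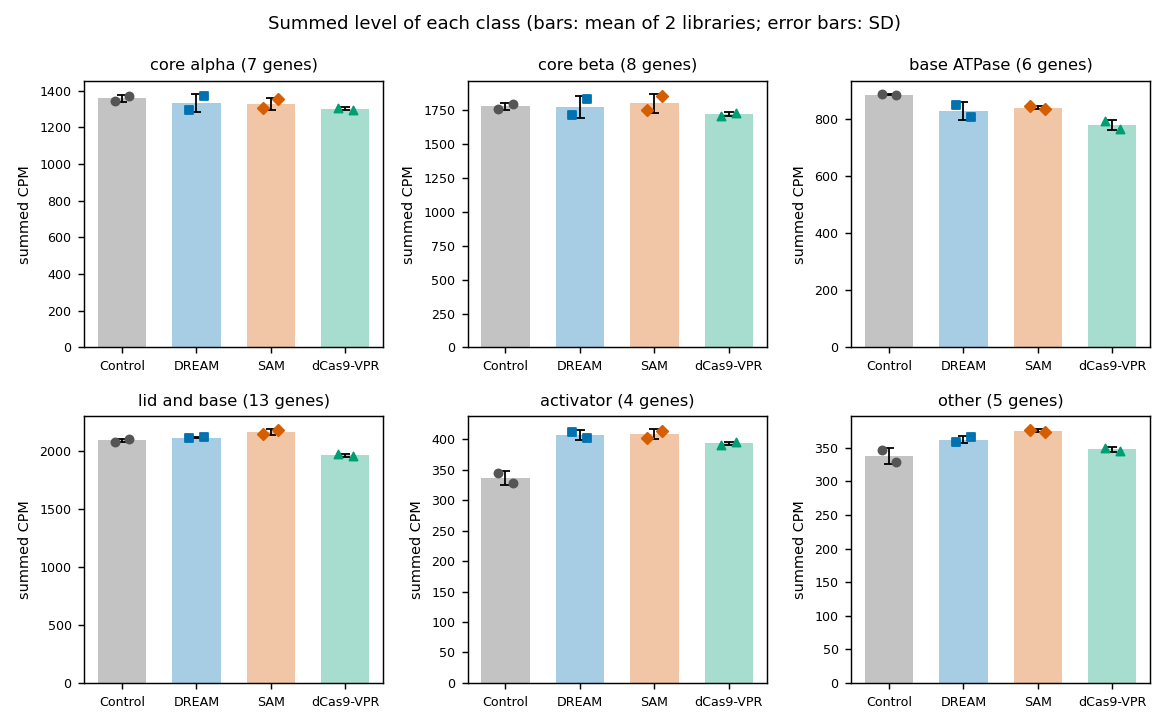
Bars give the mean summed CPM of each class in each group, points the 2 libraries and error bars the SD (all axes start at 0). The activator sum lies higher in all 6 activator libraries (392 to 414 CPM) than in the control (328 and 344 CPM), and the base ATPase sum lies lower (766 to 849 against 884 and 888 CPM).

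The base ATPase genes, whose products form the ring that unfolds substrates, had a lower sum in every activator library than in the control. Not every gene of the class was lower with DREAM and SAM. The 6 *PSMC* genes summed to 886 ± 2.80 CPM in the control, 828 ± 30.5 with DREAM, 840 ± 5.85 with SAM and 780 ± 18.7 with dCas9-VPR. The differences from the control were -6.58%, -5.16% and -12%, and -11.3%, -16.4% and -15.1% under median-of-ratios scaling. Of the 6 genes, 2 were called lower with DREAM (33.3%, against 9.25% of all genes) and 2 with SAM (33.3%, against 8.89%). With dCas9-VPR 3 were called lower (50%, against 6.68%). In each comparison 0 were called higher, against 18.8%, 35.7% and 11.0% of all genes.

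*PSMC1* (hg38 chr14:90256527-90275429) was called lower in all 3 comparisons. It stood at 165 and 170 CPM in the control, 146 and 139 with DREAM, 146 and 141 with SAM and 148 and 143 with dCas9-VPR. The activator groups lay together, all below the lower control library. The log2 fold changes were -0.23 ± 0.05 with DREAM (adjusted p = 0.00834), -0.22 ± 0.05 with SAM (adjusted p = 0.00674) and -0.20 ± 0.05 with dCas9-VPR (adjusted p = 0.0259). With SAM this was 0.39 below the median of all genes. The call was lost without control replicate 2 in each comparison (adjusted p = 0.0722 with DREAM), also without SAM replicate 2 (0.0557 to 0.0579 with SAM), and without control replicate 1 or either dCas9-VPR library (0.0597 to 0.181 with dCas9-VPR). A processed pseudogene, *PSMC1P1*, had 8.21 to 12.99 CPM, and reads of near-identical sequence could be split between them.

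*PSMC2* stood at 154 CPM in both control libraries, 140 and 127 with DREAM, 149 and 148 with SAM and 135 and 129 with dCas9-VPR. It was called lower with DREAM (log2 -0.21 ± 0.06, adjusted p = 0.0244) and with dCas9-VPR (log2 -0.22 ± 0.06, adjusted p = 0.0295). With DREAM the call was lost without either control library or DREAM replicate 2 (adjusted p = 0.0897 to 0.108), and with dCas9-VPR without any 1 of the libraries compared (0.0910 to 0.181). *PSMC2* overlaps *PMPCB*, at a mean of 133 CPM, on the same strand, so its level is uncertain where the annotations share bases.

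*PSMC4* stood at 137 and 144 CPM in the control, 134 and 136 with DREAM, 138 and 139 with SAM and 117 and 118 with dCas9-VPR. The fall was called with dCas9-VPR (log2 -0.26 ± 0.05, adjusted p = 0.00833) and was lost without control replicate 2 or either dCas9-VPR library (adjusted p = 0.0646 to 0.0926). *PSMC5* stood at 149 and 142 CPM in the control, 144 and 127 with DREAM, 124 and 118 with SAM and 134 and 130 with dCas9-VPR. It was called lower with SAM (log2 -0.26 ± 0.07, adjusted p = 0.00921), 0.42 below the median of all genes, and this was lost without control replicate 1 or SAM replicate 2 (adjusted p = 0.0617 to 0.0689). *PSMC3* (171 to 205 CPM) and *PSMC6* (76.2 to 92.6 CPM) were not called against the control. *PSMC6* stood at 85.0 and 83.3 CPM in the control and 86.8 and 92.6 with SAM, above both control libraries. Its DREAM and dCas9-VPR libraries lay below them. *PSMC3* overlapped the control with DREAM and SAM and lay below it with dCas9-VPR.

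The 13 *PSMD* genes encode the lid, the scaffolds and ubiquitin receptors of the base, and 2 base assembly chaperones. They summed to 2093 ± 15.8 CPM in the control, 2117 ± 2.88 with DREAM, 2165 ± 25.9 with SAM and 1964 ± 13.6 with dCas9-VPR. The difference with dCas9-VPR was -6.16% on CPM and -9.49% under median-of-ratios scaling. The small differences of 1.13% above the control with DREAM and 3.44% with SAM turned to -3.97% and -8.82% under that scaling. Of the 13, 0 were called higher and 1 lower with DREAM (0% and 7.69%, against 18.8% and 9.25% of all genes), 4 and 1 with SAM (30.8% and 7.69%, against 35.7% and 8.89%) and 0 and 4 with dCas9-VPR (0% and 30.8%, against 11.0% and 6.68%). The ratio of the core sum to the *PSMC* and *PSMD* sum was 1.04 and 1.06 in the control, 1.02 and 1.09 with DREAM, 1.02 and 1.06 with SAM and 1.09 and 1.11 with dCas9-VPR, which overlaps the DREAM range.

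*PSMD7* (hg38 chr16:74296814-74306288), a lid gene whose product pairs with the deubiquitinase PSMD14, was called lower in all 3 comparisons. It stood at 138 and 144 CPM in the control, 117 and 114 with DREAM, 125 and 126 with SAM and 117 and 111 with dCas9-VPR. No activator library reached the control range. The log2 fold changes were -0.28 ± 0.05 with DREAM (adjusted p = 0.00329), -0.17 ± 0.05 with SAM (adjusted p = 0.0279) and -0.30 ± 0.05 with dCas9-VPR (adjusted p = 0.00524). The SAM value was 0.33 below the median of all genes. The DREAM call held without each of the 8 libraries in turn. With SAM the call was lost without any 1 of the 4 libraries compared (adjusted p = 0.0514 to 0.169), and with dCas9-VPR without control replicate 2 or dCas9-VPR replicate 2 (0.0638 to 0.0657).

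Of the lid genes *PSMD6* and *PSMD12*, the SAM libraries were the highest. *PSMD6* stood at 117 and 113 CPM in the control, 125 and 122 with DREAM, 141 and 139 with SAM and 113 and 110 with dCas9-VPR. *PSMD12* stood at 47.2 and 44.4 CPM in the control, 47.3 and 41.6 with DREAM, 53.8 and 53.0 with SAM and 40.4 and 39.9 with dCas9-VPR. Both were called higher with SAM, *PSMD6* by a log2 fold change of 0.28 ± 0.05 (adjusted p = 0.00138) and *PSMD12* by 0.22 ± 0.07 (adjusted p = 0.0355). Relative to the median of all genes these were 0.12 and 0.06, and neither passed the test under median-of-ratios scaling (log2 0.10 and 0.04, adjusted p = 0.115 and 0.665). *PSMD6* kept its call without each of the 8 libraries, and *PSMD12* lost it without any 1 of the control, SAM or dCas9-VPR libraries (adjusted p = 0.0543 to 0.198).

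*PSMD10*, the chaperone gankyrin, and *PSMD4*, a ubiquitin receptor of the base, were the other lid and base genes called higher with SAM. *PSMD10* stood at 162 and 175 CPM in the control, 178 and 180 with DREAM, 199 and 192 with SAM and 173 and 169 with dCas9-VPR. *PSMD4* stood at 266 and 259 CPM in the control, 277 and 282 with DREAM, 287 and 289 with SAM and 244 and 251 with dCas9-VPR. The SAM libraries were the highest for both, and neither call remained under median-of-ratios scaling, where *PSME3* and *PSMF1* were the 2 members still called higher.

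With dCas9-VPR, *PSMD14*, *PSMD13* and *PSMD3* were called lower besides *PSMD7*. *PSMD14*, the deubiquitinase that cuts chains off substrates, stood at 136 and 138 CPM in the control, 129 and 125 with DREAM, 141 and 138 with SAM and 118 and 113 with dCas9-VPR. Its log2 fold change with dCas9-VPR was -0.25 ± 0.05 (adjusted p = 0.0113), lost without control replicate 2 or either dCas9-VPR library (adjusted p = 0.0613 to 0.104). *PSMD13* stood at 217 and 229 CPM in the control, 200 and 218 with DREAM, 199 and 223 with SAM and 185 and 191 with dCas9-VPR. Its log2 fold change with dCas9-VPR was -0.24 ± 0.07 (adjusted p = 0.0300), lost without any 1 of the 4 libraries compared (0.0547 to 0.210). *PSMD3* stood at 217 and 225 CPM in the control, 222 in both DREAM libraries, 220 and 226 with SAM and 196 and 191 with dCas9-VPR. Its dCas9-VPR libraries lay below every other library.

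The remaining lid and base genes were not called against the control. The scaffold genes *PSMD1* and *PSMD2* ranged from 114 to 129 and from 206 to 226 CPM. *PSMD8* ranged from 268 to 302 CPM and was above both control libraries in all 6 activator libraries. *PSMD9*, the other assembly chaperone gene, ranged from 83.1 to 94.7 CPM and *PSMD11* of the lid from 78.3 to 95.0 CPM.

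**Figure D3:**
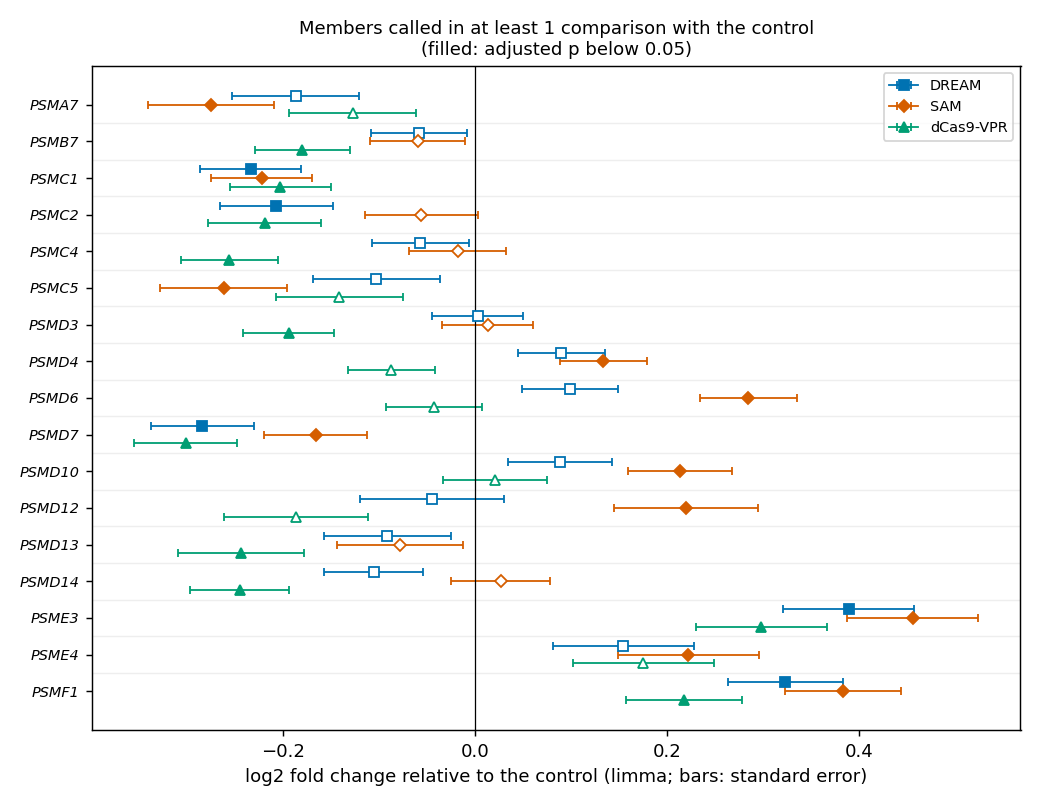
Points are log2 fold changes from limma for the 17 members called in at least 1 comparison with the control, bars are standard errors and filled points have an adjusted p below 0.05. The range is -0.30 (*PSMD7* with dCas9-VPR) to 0.46 (*PSME3* with SAM), and 4 members are filled in all 3 comparisons.

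The activator genes were the class that lay highest over the control. Their sum was 336 ± 11.2 CPM in the control, 407 ± 7.53 with DREAM, 408 ± 8.51 with SAM and 393 ± 2.74 with dCas9-VPR, which was 21.1%, 21.4% and 17.0% above the control. Under median-of-ratios scaling the differences were 15%, 7.05% and 12.9%. *PSME3* made up the larger part of the difference on CPM. Of the 4 genes, 1 was called higher with DREAM (25%, against 18.8% of all genes). With SAM 2 were called higher (50%, against 35.7%) and with dCas9-VPR 1 (25%, against 11.0%). *PSME3* was among the called genes each time.

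*PSME3* (hg38 chr17:42824385-42843760) encodes the nuclear activator PA28 gamma. It stood at 168 and 148 CPM in the control, 217 and 197 with DREAM, 219 and 214 with SAM and 193 and 195 with dCas9-VPR. All 6 activator libraries lay above both control libraries, and the control libraries differed from each other by more than those of SAM or dCas9-VPR. The log2 fold changes were 0.39 ± 0.07 with DREAM (adjusted p = 0.00228), 0.46 ± 0.07 with SAM (adjusted p = 0.000600), which was 0.29 above the median of all genes, and 0.30 ± 0.07 with dCas9-VPR (adjusted p = 0.0158). The first pair of calls held without each of the 8 libraries, and the third was lost without control replicate 2 or either dCas9-VPR library (adjusted p = 0.0975 to 0.150). *BECN1*, at a mean of 64.5 CPM, overlaps *PSME3* on the opposite strand, and whether the counting used strand is not given in the sources used here.

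*PSME4*, the gene of the large single-chain activator PA200, stood at 61.3 and 55.05 CPM in the control, 68.4 and 61.2 with DREAM, 67.0 and 68.7 with SAM and 65.7 and 65.6 with dCas9-VPR. It was called higher with SAM (log2 0.22 ± 0.07, adjusted p = 0.0312), 0.06 above the median of all genes, and not under median-of-ratios scaling (log2 0.04, adjusted p = 0.644). That call was also lost without control replicate 2 or any 1 of the SAM and dCas9-VPR libraries (adjusted p = 0.0536 to 0.235).

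*PSME1* and *PSME2* encode the 2 subunits of the interferon-inducible cap PA28. *PSME1* stood at 66.5 and 73.4 CPM in the control, 72.2 and 80.2 with DREAM, 68.0 and 75.4 with SAM and 81.9 and 80.5 with dCas9-VPR. *PSME2* stood at 48.2 and 52.3 CPM in the control, 55.2 and 63.6 with DREAM, 48.3 and 56.4 with SAM and 50.5 and 54.7 with dCas9-VPR. Neither was called against the control. The *PSME1* libraries of dCas9-VPR and the *PSME2* libraries of DREAM lay above both control libraries.

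*PSMF1* (hg38 chr20:1113240-1189415) encodes PI31, an inhibitor of the isolated core. It stood at 119 and 107 CPM in the control, 143 and 139 with DREAM, 148 and 146 with SAM and 133 and 129 with dCas9-VPR. The groups did not overlap the control. The log2 fold changes were 0.32 ± 0.06 with DREAM (adjusted p = 0.00314), 0.38 ± 0.06 with SAM (adjusted p = 0.000764), 0.22 above the median of all genes, and 0.22 ± 0.06 with dCas9-VPR (adjusted p = 0.0332). The calls for DREAM and SAM held without each of the 8 libraries. The call for dCas9-VPR was lost without control replicate 2 or any 1 of the SAM and dCas9-VPR libraries (adjusted p = 0.0521 to 0.270) and under median-of-ratios scaling (log2 0.17, adjusted p = 0.0641).

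The *PSMG* genes, whose products help assemble the core rings, were not called in any comparison. Their sum was 225 ± 3.36 CPM in the control, 221 ± 8.43 with DREAM, 229 ± 1.42 with SAM and 217 ± 1.24 with dCas9-VPR. *PSMG1* ranged from 87.9 to 95.4 CPM, *PSMG2* from 28.0 to 31.9, *PSMG3* from 67.4 to 76.2 and *PSMG4* from 28.2 to 32.2 CPM.

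**Figure D4:**
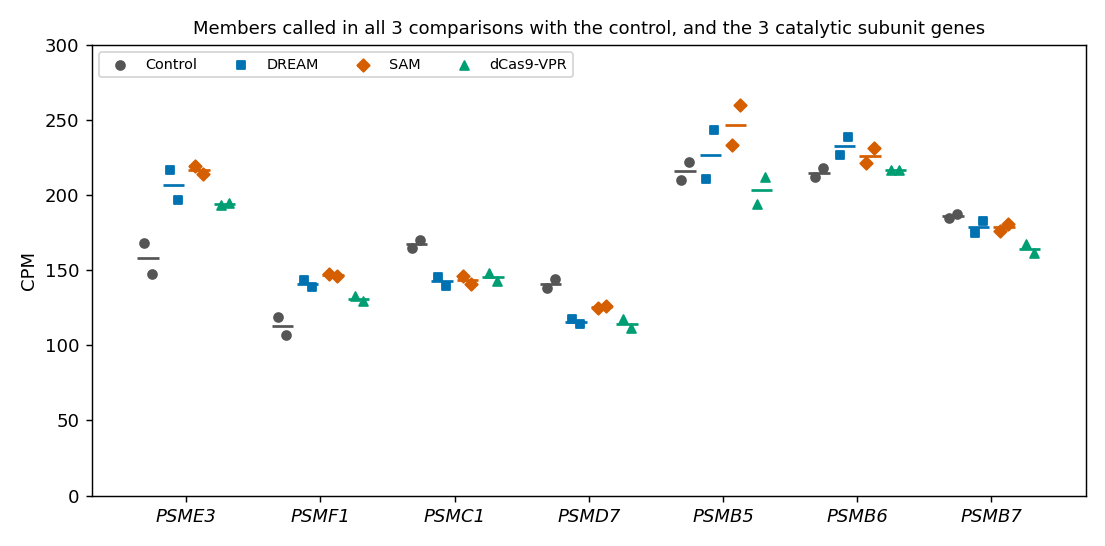
CPM in each library (points; lines are group means) for the 4 members called in all 3 comparisons with the control and the 3 catalytic subunit genes, on an axis that starts at 0. The control points of *PSME3* and *PSMF1* lie below all activator points, those of *PSMC1*, *PSMD7* and *PSMB7* lie above them, and those of *PSMB5* lie among them. Of *PSMB6*, 1 control point lies below all activator points and 1 among them.

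Of the 43 members, 17 were called in at least 1 comparison with the control, 26 in none and 22 in none of the 6 comparisons run. The same counts over all genes are not given here, so these numbers cannot be read against a background. None was called higher in one comparison with the control and lower in another. The calls of members with the antioxidant response letters were 0 higher and 0 lower of 13 with DREAM, 2 and 1 with SAM and 0 and 2 with dCas9-VPR. Members without the letters had 2 higher and 3 lower of 24, 4 and 2, and 2 and 5 in the same order. The split covers the 37 members with a promoter window, so the calls of *PSMA7*, *PSMB7* and *PSMD4*, which had no window, are left out. Of all genes tested, 18.8% were higher and 9.25% lower with DREAM, 35.7% and 8.89% with SAM and 11.0% and 6.68% with dCas9-VPR. The median log2 fold change with and without the letters was 0.0025 and 0.0094 for DREAM, 0.013 and 0.036 for SAM and -0.041 and -0.045 for dCas9-VPR.

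Between genes, levels were compared as CPM per kb of the Gencode canonical transcript in the control. *PSMB4* (471 CPM per kb), *PSMB1* (373), *PSMB3* (324) and *PSMA7* (321), all of the core, were the highest. The catalytic genes *PSMB6*, *PSMB5* and *PSMB7* stood at 261, 207 and 189 CPM per kb. The lowest were *PSME4* (8.02 CPM per kb), *PSMD12* (10.5), *PSMB10* (10.9) and *PSMF1* (13.8). The order depends on the transcript taken as canonical, which was long for *PSMB2* (4426 bases) and *PSMA4* (4378 bases).

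The activators were also compared with each other. Without adjustment, p was below 0.05 for 8 members between DREAM and SAM, 10 between DREAM and dCas9-VPR and 21 between SAM and dCas9-VPR. Of the 15122 genes tested, 4410, 4241 and 6268 had such a p in the same order. DREAM relative to SAM had 0 members higher and 2 lower, against 1.59% and 9.14% of all genes. *PSMD12* differed by a log2 of -0.26 ± 0.07 (adjusted p = 0.0486) and *PSMD6* by -0.19 ± 0.05 (adjusted p = 0.0415), with DREAM the lower. The median of all genes in this comparison moved from -0.09 to 0.01 under median-of-ratios scaling. The count of members there became 2 higher and 0 lower (4.65% and 0%), against 5.31% and 3.57% of all genes. Neither *PSMD12* nor *PSMD6* was called under that scaling (log2 -0.16 and -0.08, adjusted p = 0.149 and 0.320). Both calls were lost without any 1 library other than DREAM replicate 1 (adjusted p = 0.0616 to 0.217), and without that library 5 members were called. *PSMB5* (log2 -0.12), *PSMB6* (0.04) and *PSMB7* (0.0013) did not pass the test (adjusted p = 0.335, 0.62 and 0.989).

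DREAM relative to dCas9-VPR had 4 members higher and 0 lower, against 7.90% and 5.21% of all genes. These were *PSMC3* (log2 0.21 ± 0.05, adjusted p = 0.0236), *PSMC4* (log2 0.20 ± 0.05, adjusted p = 0.0275), *PSMD3* (log2 0.20 ± 0.05, adjusted p = 0.0233) and *PSMD4*, all of the cap. Under median-of-ratios scaling 1 member was called higher, *PSMC3* (log2 0.18, adjusted p = 0.0306), and 0 lower. These were 2.33% and 0% of members, against 6.92% and 6.81% of all genes under that scaling. The count fell to 1 without DREAM replicate 2 and to 0 without either dCas9-VPR library. *PSMB5*, *PSMB6* and *PSMB7* differed by a log2 of 0.16, 0.10 and 0.12 (adjusted p = 0.225, 0.203 and 0.138), and without DREAM replicate 1 the difference of *PSMB5* was called (log2 0.26, adjusted p = 0.0463).

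SAM relative to dCas9-VPR had 11 members higher and 0 lower (25.6% and 0%), against 23.6% and 6.32% of all genes. The 11 were 3 *PSMC* and 6 *PSMD* genes, together with *PSMA6* and *PSMB5*. *PSMD12* had the largest difference (log2 0.41 ± 0.07, adjusted p = 0.00304), followed by *PSMD6* (log2 0.33 ± 0.05, adjusted p = 0.00125) and *PSMB5* (log2 0.28 ± 0.08, adjusted p = 0.0243). The median of all genes here moved from 0.10 to -0.02 under median-of-ratios scaling, and the count of members became 2 higher and 5 lower. In percent of members these were 4.65 and 11.6, against 13.5% and 16% of all genes under that scaling. *PSMD12* (log2 0.28, adjusted p = 0.0109) and *PSMD6* (log2 0.20, adjusted p = 0.0129) were the 2 still called higher and also kept their calls without each library, whereas *PSMB5* was lost under that scaling and without SAM replicate 2 or dCas9-VPR replicate 1 (adjusted p = 0.168 to 0.181). The count fell to 5 without SAM replicate 2 and to 4 and 6 without dCas9-VPR replicates 1 and 2. *PSMB6* (log2 0.06, adjusted p = 0.373) and *PSMB7* (log2 0.12, adjusted p = 0.0924) did not pass the test.

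Around the subunits, 32 genes of the ubiquitin-proteasome pathway outside the PSM names were listed by role, and all 32 were tested. With DREAM 5 were higher and 8 lower (15.6% and 25.0%), with SAM 8 and 9 (25.0% and 28.1%) and with dCas9-VPR 3 and 9 (9.38% and 28.1%). The share called lower was above the 9.25%, 8.89% and 6.68% of all genes, and the share called higher was below that of all genes. Their median log2 fold changes were -0.01, 0.06 and -0.01.

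Among regulators of subunit transcription, *NFE2L1* stood at 116 and 113 CPM in the control, 143 and 121 with DREAM, 135 and 123 with SAM and 114 and 104 with dCas9-VPR, and was not called against the control. *NFE2L2*, the gene of NRF2, was called higher with DREAM (log2 2.56 ± 0.06, adjusted p = 6.31e-09), with 47.0 and 44.02 CPM in the control against 275 and 268 CPM, and lower with SAM and dCas9-VPR. MCP-MSN carries a part of NRF2, and this row cannot separate reads of the transfected effector from those of the cell's own gene. *MAFF*, a small MAF partner of these factors, stood at 11.3 and 12.5 CPM in the control, 4.52 and 5.86 with DREAM, 6.43 and 8.16 with SAM and 3.98 and 4.33 with dCas9-VPR. It fell in all 3, by 1.13 (adjusted p = 0.000493), 0.68 (adjusted p = 0.00512) and 1.41 (adjusted p = 0.000437) on the log2 scale, with the SAM call lost without SAM replicate 1 (adjusted p = 0.0525). *NFE2L3* was called higher with SAM (log2 0.38 ± 0.10, adjusted p = 0.00945), at 14.2 and 15.5 CPM in the control and 18.8 and 20.2 with SAM. That call was lost without control replicate 1 or SAM replicate 2 (adjusted p = 0.0621 to 0.0708) and under median-of-ratios scaling.

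Receptors and shuttles, which bring ubiquitin-tagged proteins to the cap, moved both ways. *ADRM1*, the receptor at the tip of the cap, stood at 140 and 136 CPM in the control and between 104 and 110 CPM in all activator libraries. It was called lower with DREAM (log2 -0.36, adjusted p = 0.000682) and SAM (log2 -0.40, adjusted p = 0.000272), and was also called lower with dCas9-VPR. The shuttle gene *UBQLN4* stood at 89.8 and 84.4 CPM in the control and between 111 and 129 CPM in the activator libraries, and was called higher with DREAM (log2 0.49, adjusted p = 0.000402), SAM (log2 0.53, adjusted p = 0.000183) and dCas9-VPR (log2 0.36, adjusted p = 0.00521). *DDI2*, the protease that activates NRF1, was called higher with SAM (log2 0.48, adjusted p = 0.00219) and dCas9-VPR (log2 0.36, adjusted p = 0.0246). With dCas9-VPR the calls of *UBQLN4* and *DDI2* were lost without control replicate 2 or either dCas9-VPR library, and that of *DDI2* also without control replicate 1 (adjusted p = 0.0527 to 0.168).

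*UFD1*, a cofactor of the segregase p97 that extracts ubiquitin-tagged proteins, stood at 93.1 and 97.5 CPM in the control and between 70.4 and 75.9 CPM in all activator libraries. It was called lower with DREAM (log2 -0.38, adjusted p = 0.00155), SAM (log2 -0.37, adjusted p = 0.00109) and dCas9-VPR (log2 -0.39, adjusted p = 0.00348). *AKIRIN2*, which carries assembled proteasomes into the nucleus, was called lower with DREAM and dCas9-VPR. It stood at 85.7 and 85.5 CPM in the control and 65.4 and 66.8 with dCas9-VPR (log2 -0.37, adjusted p = 0.00210). The activating enzyme gene *UBA1* was called higher in all 3 comparisons. With SAM its log2 fold change of 0.14 was below the median of all genes, 0.16. With dCas9-VPR its log2 fold change was 0.22 (adjusted p = 0.0125), from 455 and 436 CPM in the control to 508 and 528 CPM, a call lost without control replicate 2 or either dCas9-VPR library (adjusted p = 0.0716 to 0.122). The falls of *UFD1* in all 3 and of *AKIRIN2* with dCas9-VPR held without each of the 8 libraries.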

How the data were processed

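RNA-seq was done on HEK293T cells, 2 libraries in each of 4 groups, grouped by the labels. Per the labels and the study's methods, libraries were made with a stranded total RNA kit and read as paired ends, reads were aligned with STAR 2.7.3a to hg38 with Gencode 36, and expression was quantified by a Bayesian method. The authors deposited CPM, with 0.0001 added to each value and each library summing to 1e6, and tested with DESeq2.

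Log2(CPM + 0.5) was fitted here (R 4.3.3, limma 3.58.1, with its trend and robust settings) over all 8 libraries, with 1 coefficient per group and 6 contrasts, for the 15122 genes at 1 CPM or more in at least 2 libraries. P-values were adjusted by Benjamini-Hochberg over these genes and called below 0.05. Fold changes are on the log2(CPM + 0.5) scale. The scripts were tested on simulated data. Members and lists were chosen with earlier results of these data known. Fold changes are given for the 5 largest called members in each direction per comparison with the control, the 3 largest between activators and in the pathway list, the catalytic genes and, in figures, all called members. Other members are given by level, and PSMD10, PSMD4, PSMD3 and PSMD8 were singled out after their values were seen. Printed gene coordinates and transcript lengths came from Gencode 44 and promoters from RefSeq (GRCh38.p14). The Gencode 44 start equalled the deposited one for 42 members, and the end was 1 below the deposited one for 41. Overlaps between genes were found with the deposited coordinates. Whole reads could not be recovered, so no count model was run. Alternatives were median-of-ratios scaling, other filters and pseudocounts, a replicate block, fits of the 4 libraries compared, other thresholds and leaving out each library. One gene that the rule names in the pathway list is not reported here.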

Additional observations from a re-analysis of the deposited data

How the results depend on the processing

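The number of members called was 5 for DREAM, 11 for SAM and 10 for dCas9-VPR against the control, 2 for DREAM relative to SAM, 4 for DREAM relative to dCas9-VPR and 11 for SAM relative to dCas9-VPR. Median-of-ratios scaling gave 9 for DREAM, 23 for SAM, 1 for DREAM relative to dCas9-VPR and 7 for SAM relative to dCas9-VPR. With a fold change above 1.5 required as well, the count was 0 in all 6 comparisons. At a false discovery rate below 0.01 it was 7 for SAM, 2 for dCas9-VPR, 0 for DREAM relative to SAM or to dCas9-VPR and 6 for SAM relative to dCas9-VPR. Leaving out 1 library gave 3 to 8 for DREAM, 5 to 13 for SAM, 0 to 12 for dCas9-VPR, 0 to 5 for DREAM relative to SAM or to dCas9-VPR and 4 to 16 for SAM relative to dCas9-VPR. A group with 1 library left was assumed to vary like the others. For DREAM relative to SAM, no filter, a filter at 10 CPM and a pseudocount of 0.1 gave 1 and the 4 libraries alone gave 0. The 4 libraries alone gave 0 for DREAM and 18 for SAM relative to dCas9-VPR. The labels number the libraries 1 and 2 in every group but do not say that a number marks a shared transfection or day. With the replicate number as a block the count was 13 for DREAM, 15 for SAM, 16 for dCas9-VPR, 11 for DREAM relative to SAM, 14 for DREAM relative to dCas9-VPR and 24 for SAM relative to dCas9-VPR. Some catalytic gene differences not called in the fit without a block were called with it. These were *PSMB6* with DREAM (adjusted p = 0.0178), *PSMB5* with SAM (0.000254) and *PSMB5* between DREAM and SAM (0.0243). All 3 between DREAM and dCas9-VPR (0.00395 to 0.0436) and *PSMB7* between SAM and dCas9-VPR (0.0186) were called too. Of these, *PSMB5* with SAM and *PSMB5* between DREAM and dCas9-VPR were also called under other alternatives, as given above. The difference of library 2 from library 1 correlated between groups at r = 0.434 to 0.713 over the 43 members and 0.133 to 0.326 over all genes tested. It had 1 sign in all 4 groups for 17 members (39.5%), 8 higher and 9 lower in library 2, and for 35.9% of all genes. Among 975 values of 65 log2 fold changes under the alternatives, 835 kept direction and side of the threshold, 119 lost the call, 12 gained it and 9 changed sign. The sign changes were in uncalled values of the catalytic genes. Median-of-ratios scaling gave -0.0055 for *PSMB5* with DREAM, -0.11 and -0.041 for *PSMB6* with SAM and dCas9-VPR, and -0.067 for *PSMB6* and -0.0097 for *PSMB7* between SAM and dCas9-VPR. Leaving out 1 library gave -0.033 to 0.17 for *PSMB5* with DREAM, -0.0086 to 0.030 for *PSMB6* with dCas9-VPR and -0.031 to 0.034 for *PSMB7* between DREAM and SAM. The cause of these changes was not tested. With 2 libraries a group, standard errors of 0.04 to 0.11 on the log2 scale set the precision for the members.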

Other observations

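Processed pseudogenes of members were low. *PSMC1P1* stood at 8.21 to 11.4 CPM in the activator libraries, against 12.99 and 9.62 CPM in the control, and *PSMA6P1*, *PSME2P1*, *PSME2P2* and *PSME2P3* stood at 1.01 CPM or less in every library. In the comparison of SAM with dCas9-VPR, 9 of the 32 pathway genes were higher and 2 lower (28.1% and 6.25%). The shares of all genes were near these, at 23.6% and 6.32%. *NGLY1*, the glycanase that acts on NRF1 before its activation, was not among the genes named above. It stood at 47.0 and 43.4 CPM in the control, 46.4 and 43.7 with DREAM, 57.1 and 60.8 with SAM and 45.5 and 43.3 with dCas9-VPR, and was called higher with SAM than with the control (log2 0.38 ± 0.07, adjusted p = 0.00196) or with dCas9-VPR (log2 0.41 ± 0.07, adjusted p = 0.00237). It was singled out after its values were seen. The median log2 fold change of all genes was 0.16 for SAM against the control and 0.10 against dCas9-VPR. Of all genes, 35.7% were called higher with SAM than with the control and 23.6% than with dCas9-VPR.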
